A study of Mus musculus with 2 samples.

Results

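DNase I hypersensitive sites (DHS), short stretches of open chromatin that the enzyme DNase I cuts readily, were examined around 8 microRNA genes in mouse splenic B cells. The members are Mir155, Mir142, Mir150, Mir223, Mir146, Mir34a, Mir181a-1 and Mir17, microRNAs linked to lymphocytes, to myeloid cells or to p53, and they were picked by name from the 1576 microRNA genes that GENCODE M1 places on chromosomes 1 to 19 and X. All DHS overlapping the 30 kb on either side of a hairpin were assigned to it, which gave 39 of the 47542 DHS in the peak list. The cells were B220-selected B cells from spleens of unirradiated (mock) C57/Bl6 mice of 8 weeks, wild type for Trp53, with 1 DNaseI library and 1 input library and no second condition. Selection on B220 enriches for B cells and does not exclude other cells. A DHS lay at the promoter of 7 of 7 B cell marker genes (Cd79a, Cd79b, Pax5, Ms4a1, Cd22, Blk and Cr2), of 2 of 6 T cell genes (Lck and Cd5, with top scores of 92.8 and 97.7, but not Cd3e, Cd3g, Cd4 or Cd8a) and of 3 of 6 myeloid genes (Itgam, Elane and Csf3r, with top scores of 18.2, 42.5 and 12.3, but not Csf1r, Lyz2 or Mpo). The top promoter scores of the B cell genes ran from 83.97 to 265, a range that holds the scores of Lck and Cd5. Over all protein-coding genes the share with a promoter DHS was 57%. Depth is unknown, so a locus without a DHS is one where none was called, and nothing can be said of how open it was below that limit.

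A microRNA is cut from a hairpin within a longer primary transcript, and the mature strand pairs with messenger RNAs through its seed, bases 2 to 8, and lowers their output. The promoter of the primary transcript can lie close to the hairpin or many kilobases upstream, and is often poorly annotated. miR-142 is made throughout the blood lineages, miR-150 in mature B and T cells, and miR-223 in granulocytes and monocytes. miR-155 and miR-146a rise when lymphocytes and macrophages are activated, the latter through NF-kB. miR-181a acts in thymocytes and early B cell development, the Mir17 cluster promotes lymphocyte survival, and miR-34a is a direct target of p53.

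The mature sequences from RefSeq are shown with the seed in capitals, as examples of the products of these loci. Both arms are given for Mir142, whose products are both abundant in blood cells, and 1 arm for each of the others.
miR-155-5p: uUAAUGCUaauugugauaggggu
miR-142a-5p: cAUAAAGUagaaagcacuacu
miR-142a-3p: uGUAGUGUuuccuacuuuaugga
miR-150-3p: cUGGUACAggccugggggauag
miR-223-3p: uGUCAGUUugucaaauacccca
miR-146a-5p: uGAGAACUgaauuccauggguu
miR-34a-5p: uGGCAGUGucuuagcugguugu
miR-181a-5p: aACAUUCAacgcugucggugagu
miR-17-5p: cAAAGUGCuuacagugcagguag

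Among the mature sequences compared, with miR-150-3p standing for Mir150, no seed was shared between members. Within this set of hairpins seeds were shared only inside clusters, where a cluster is a set of hairpins within 10 kb on the same strand. Mir181b-1, 184 bp from Mir181a-1, gives a mature microRNA with the same seed:
miR-181b-5p: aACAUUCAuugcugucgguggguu
The Mir17 cluster holds 5 further hairpins (Mir18, Mir19a, Mir20a, Mir19b-1 and Mir92-1), and among its products miR-20a-5p shares the seed of miR-17-5p, and miR-19a-3p that of miR-19b-3p:
miR-20a-5p: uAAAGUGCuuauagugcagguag
miR-19a-3p: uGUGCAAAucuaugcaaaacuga
miR-19b-3p: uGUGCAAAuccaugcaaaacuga
The 26 mature sequences taken from RefSeq for these 14 hairpins were all found at their annotated loci on mm9, and 5 of them, from Mir155, Mir142 and Mir150, lay inside a DHS.

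A DHS was called within 30 kb of 7 of the 8 hairpins, the exception being Mir181a-1. Over all annotated microRNA genes the share was 48.7% (46.2 to 51.1), and over the 529 with a Mir symbol it was 50.1%. When hairpins within 10 kb were joined into 1253 loci it was 54.3%, and around protein-coding genes, measured from the first TSS, it was 69.9%. TSS stands for transcription start site. The number of DHS was 9 at Mir142, 9 at Mir146, 7 at Mir150, 6 at Mir34a, 4 at Mir155, 3 at Mir17, 1 at Mir223 and 0 at Mir181a-1. The median over the members was 5, against 0 over all microRNA genes (quartiles 0 and 3) and 1 over those with a Mir symbol (quartiles 0 and 3). The loci thus ran from an empty window to the windows of Mir142 and Mir146, which tied at rank 50 among all microRNA genes by number of DHS.

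**Figure D1:**
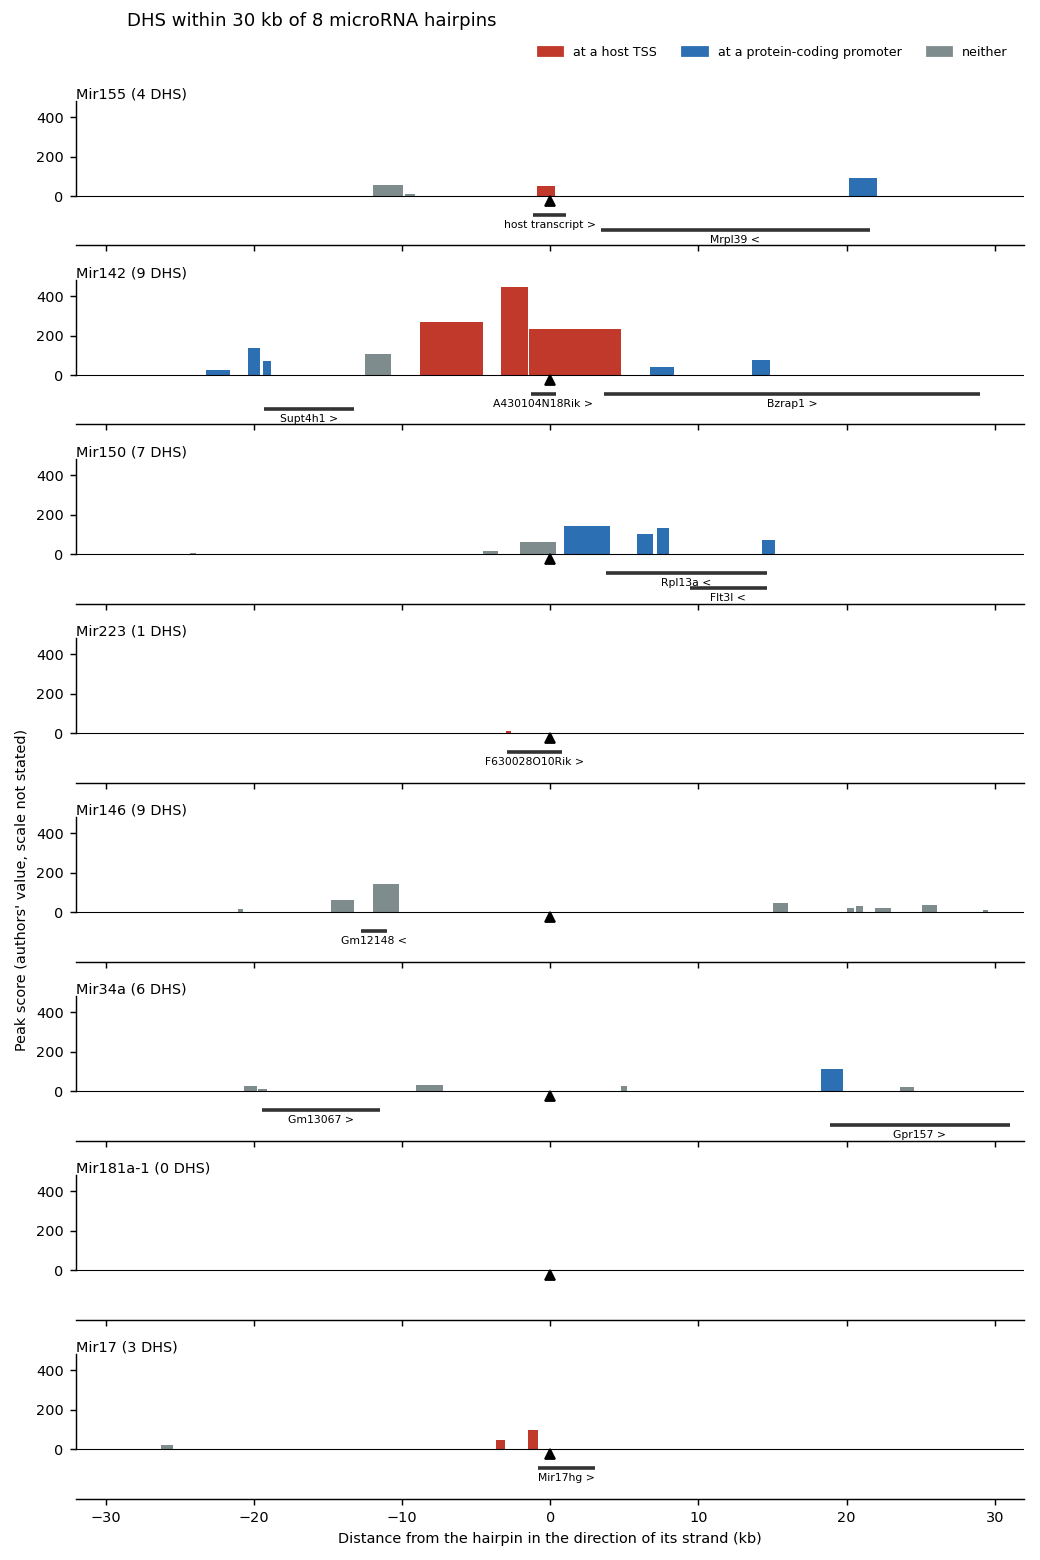
DHS around each hairpin (triangle), drawn at their width and with the authors' score as height, against the distance from the hairpin in kb, with positive values downstream on the hairpin's strand. Red DHS lie at a TSS of the host transcript, blue ones at a protein-coding promoter and grey ones at neither, and dark lines are the annotated genes named in the text with their direction. Mir142 holds the highest and widest DHS, Mir223 a single small one and Mir181a-1 none.

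The authors' score is a value per peak of unstated scale, with a median of 32.65 over the list, and is used here only to compare DHS within this list. The limit of 1.5 times set below for alternative settings was applied to it too, although a ratio on an unstated scale has no stated meaning. The highest score within 30 kb was 447 at Mir142, 144 at Mir146, 144 at Mir150, 111 at Mir34a, 99.2 at Mir17, 90.3 at Mir155 and 11.7 at Mir223. The score of Mir142 ranked 7 among 1576 microRNA windows. DHS covered 32.9% of the Mir142 window, which ranked 5, then 15.97% at Mir150, 13.5% at Mir146, 10.3% at Mir34a, 9.59% at Mir155, 3.52% at Mir17 and 0.556% at Mir223. The genome-wide value was 1.67%, so that Mir223 and Mir181a-1 lay below it and the other 6 windows above it.

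**Figure D2:**
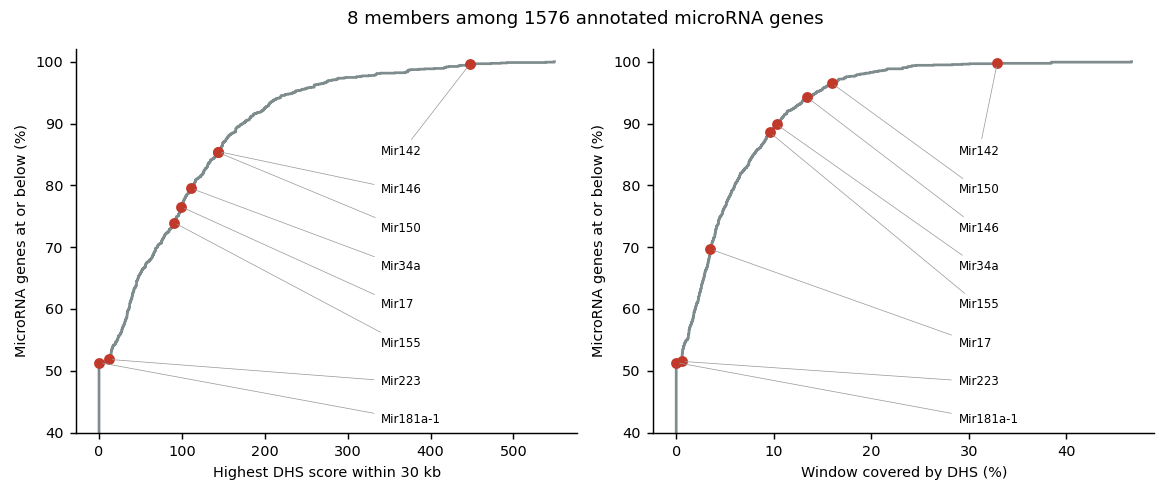
Cumulative share of all annotated microRNA genes (y axis, %) by the highest DHS score within 30 kb (left) and by the percentage of the window covered by DHS (right), with the 8 members as red points. Mir142 lies at the upper end of both curves, Mir181a-1 at 0 with the microRNA genes that have no DHS, and Mir223 just above these, at percentiles 51.8 and 51.5.

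Mir142 (chromosome 11, 87570366 to 87570429, plus strand) lies in an intron of A430104N18Rik, a noncoding transcript that starts at 87569079. The highest DHS of the window was at 87567090 to 87568907, 1.46 kb upstream of the hairpin, with a score of 447 at percentile 99.9 of the list. The next, with 267 at percentile 98.6, was 4.51 kb upstream at 87561577 to 87565853. A DHS of 6201 bp with a score of 234 ran from 87568969 to 87575169 and so covered the start of the host, the hairpin and the start of the neighbouring gene Bzrap1. These 3 neighbouring DHS all lay in the promoter window of the host, from 5 kb upstream to 2 kb downstream of its TSS. Of the 9 DHS of this window 8 scored at or above the median, and 6 were at protein-coding promoters, among them those of Supt4h1, a transcription elongation factor gene.

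The hairpin of Mir142 inside that DHS is shown with both mature strands in capitals (chr11:87570366-87570429, plus strand, mm9).
Mir142 hairpin: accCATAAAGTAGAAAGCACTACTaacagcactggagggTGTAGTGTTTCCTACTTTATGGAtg
The central 300 bases of the highest DHS at this locus are shown with the single match to the E-box CACGTG in capitals (chr11:87567848-87568147, plus strand, mm9). They held 3 CpG dinucleotides.
Mir142 upstream DHS: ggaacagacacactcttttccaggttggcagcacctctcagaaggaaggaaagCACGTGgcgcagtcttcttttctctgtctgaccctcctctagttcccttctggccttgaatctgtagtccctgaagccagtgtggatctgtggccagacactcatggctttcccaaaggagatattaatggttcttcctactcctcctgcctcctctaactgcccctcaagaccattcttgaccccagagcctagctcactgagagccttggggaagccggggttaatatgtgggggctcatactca

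Mir150 (chromosome 7, 52377127 to 52377191, plus strand) has no host in this annotation. Its hairpin lay inside a DHS of 2427 bp (52375133 to 52377559) with a score of 63.7, at percentile 72.3, most of which was upstream of the hairpin and outside every protein-coding promoter window. Inside Rpl13a, a ribosomal protein gene downstream on the other strand, 2 DHS scored 104 and 132, and 1 at the shared start of Rpl13a and Flt3l scored 71.6. Flt3l encodes a cytokine. Upstream of the DHS over the hairpin, 2 others scored 14.96 and 6.94. The 3 DHS described in the promoter windows of Rpl13a and Flt3l all scored above the one over the hairpin.

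Mir155 (chromosome 16, 84714385 to 84714449, plus strand) lies in an exon of a noncoding host transcript of the same name, which starts at 84713268. A DHS of 1168 bp (84713537 to 84714704) covered the hairpin. Its score was 50.6, at percentile 65.5, and it began 269 bp downstream of the annotated start without covering it. The highest DHS of the window, with 90.3, was 20.1 kb downstream over the start of Mrpl39, a mitochondrial ribosomal protein gene. A DHS of 2021 bp with a score of 55.8 lay 9.91 kb upstream at 84702457 to 84704477. It is singled out after its values were seen because it held 101 CpG dinucleotides, with an observed to expected ratio of 0.759, while no TSS is annotated there. The hairpin, as it lies in the DHS, is shown with the mature strands in capitals (chr16:84714385-84714449, plus strand, mm9).
Mir155 hairpin: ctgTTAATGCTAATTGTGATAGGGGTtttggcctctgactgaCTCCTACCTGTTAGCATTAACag

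The hairpin was inside a DHS at these 3 loci, Mir142, Mir150 and Mir155, against 6.22% of all microRNA genes (5.13 to 7.52) and 7.75% of those with a Mir symbol. The hairpins of the other 5 members lay 772 bp (Mir17), 2576 bp (Mir223), 4697 bp (Mir34a), 10200 bp (Mir146) and 33590 bp (Mir181a-1) from the nearest DHS.

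Mir17 (chromosome 14, 115442893 to 115442976, plus strand) and the other hairpins of its cluster lie in the noncoding transcript Mir17hg. Its annotated starts are 115442101, called its start below, and 115442893, the first base of the hairpin, which no DHS covered. The DHS over the start at 115442101 (115441419 to 115442121) had a score of 99.2, at percentile 84.2, and ended 772 bp short of the hairpin. A smaller DHS with a score of 46.7 lay 3.04 kb upstream, and its observed to expected CpG ratio of 0.875 was the highest of the 39. Another, with 23.7, was 25.4 kb upstream. No DHS was called downstream of the hairpin within 30 kb, and the nearest one was 47.9 kb away. Within 1000 kb on each side the list held only 5 DHS, so that 3 of these 5 fell in the window studied. The central 300 bases of the DHS over the start of Mir17hg are shown with CpG dinucleotides in capitals, of which there were 9 (chr14:115441620-115441919, plus strand, mm9).
Mir17hg start DHS: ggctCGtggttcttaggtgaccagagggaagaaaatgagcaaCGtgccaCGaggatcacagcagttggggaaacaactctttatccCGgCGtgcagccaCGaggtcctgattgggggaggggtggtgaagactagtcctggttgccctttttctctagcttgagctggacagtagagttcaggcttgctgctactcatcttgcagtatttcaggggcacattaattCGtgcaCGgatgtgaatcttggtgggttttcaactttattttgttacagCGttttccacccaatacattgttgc

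Mir223 (chromosome X, 93438156 to 93438265, plus strand), the myeloid member, lies in an exon of the noncoding transcript F630028O10Rik, which starts at 93435281. Its single DHS (93435247 to 93435580) covered that start. The score was 11.7, at percentile 8.74, and the width of 334 bp is the smallest in the list, shared by 825 DHS. Within 100 kb there were 2 more DHS, both upstream, with scores of 13.5 and 19.8. Downstream the next DHS was 2694 kb away. The central 300 bases of the DHS at the host start are shown with CpG dinucleotides in capitals, to set beside the start of Mir17hg (chrX:93435263-93435562, plus strand, mm9). Only 1 was present, and GC content was 40.3%, against 49.7% in the Mir17hg stretch.
Mir223 host start DHS: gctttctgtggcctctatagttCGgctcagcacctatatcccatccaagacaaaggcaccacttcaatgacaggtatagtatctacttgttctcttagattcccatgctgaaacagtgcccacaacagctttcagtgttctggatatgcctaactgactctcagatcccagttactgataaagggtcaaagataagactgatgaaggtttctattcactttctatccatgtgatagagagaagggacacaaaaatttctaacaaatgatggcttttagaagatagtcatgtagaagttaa
Of the myeloid marker genes 3 of 6 had a promoter DHS, at the scores given above, against 57% of all protein-coding genes. Whether other cells in the preparation had a part in the Mir223 DHS was not tested.

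A DHS lay at the host TSS in all 4 members that have a host (Mir155, Mir142, Mir223 and Mir17), against 71.9% of the 673 microRNA genes with a host, 76.8% of those with a host and a Mir symbol, and 57% of protein-coding genes at their own TSS. Hairpins that share a host share its DHS, and 119 of the 673 lie in 1 gene, Sfmbt2, whose promoter DHS had a highest score of 10.3. With each host counted once the share was 68.2% (331 of 485 hosts, 63.97 to 72.2). Among these 331 hosts the median of the highest score was 108, and the hosts of the members stood at percentile 99.1 (Mir142, 447), 43.5 (Mir17, 99.2), 19.6 (Mir155, 50.6) and 2.11 (Mir223, 11.7). Only the Mir142 host was thus above the median. Of the 4 members without a host only Mir150 had a DHS in the window around the 5′ end of its hairpin gene, against 19.6% of the 903 microRNA genes without a host and 27.8% of those with a Mir symbol. With and without a host together it was 5 of 8 members, against 41.9% of all microRNA genes, those in Sfmbt2 included, and 56.1% of those with a Mir symbol.

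Mir146, which gives miR-146a, is on chromosome 11 (43187899 to 43187963, minus strand) and has no host in this annotation. No DHS lay within 10 kb of the hairpin. The nearest and highest was 10.2 kb upstream (43198163 to 43199915), with a score of 144 at percentile 92.2. It covered the start of Gm12148, a noncoding transcript that begins at 43198984 on the opposite strand and runs away from the hairpin. A second upstream DHS had a score of 61.2. Downstream, 6 DHS lay between 14.97 and 29.2 kb from the hairpin, with scores from 9.65 to 45.4. All 9 DHS were away from protein-coding promoters, and 5 of them scored at or above the median. Within 1000 kb on each side the list held 24 DHS. The central 300 bases of the strongest are shown with the PU.1 word in capitals (chr11:43198889-43199188, plus strand, mm9), and they held 12 CpG dinucleotides.
Mir146 upstream DHS: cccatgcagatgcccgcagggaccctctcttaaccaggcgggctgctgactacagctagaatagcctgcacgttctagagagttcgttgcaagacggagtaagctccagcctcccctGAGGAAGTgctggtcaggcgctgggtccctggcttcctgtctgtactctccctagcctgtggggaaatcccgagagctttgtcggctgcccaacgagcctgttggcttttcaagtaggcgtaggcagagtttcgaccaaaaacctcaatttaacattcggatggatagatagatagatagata

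Mir34a (chromosome 4, 149442563 to 149442664, plus strand) is the member most closely tied to p53. It has no host in this annotation, and the noncoding transcript Gm13067 starts 19.5 kb upstream on the same strand, at 149423122, and ends before the hairpin. The highest of the 6 DHS, with 111 at percentile 86.96, was at the promoter of Gpr157, a G protein-coupled receptor gene, 18.2 kb downstream. The others scored from 13.2 to 33.2. The nearest, with 27.3, was 4.70 kb downstream, and the highest away from the Gpr157 promoter, with 33.2, was 7.20 kb upstream. In the promoter window of Gm13067 were 2 neighbouring DHS, with scores of 25.5 (149421913 to 149422792) and 13.2 (149422902 to 149423510), both below the median of the list. They had GC contents of 57.5% and 62.7% and CpG ratios of 0.579 and 0.668.

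The p53 response element was searched within 30 kb of each hairpin, because the study mapped DHS in unirradiated B cells to describe the chromatin at sites that p53 binds. The element consists of paired decamers, here with no spacer between them, each with a C and a G at fixed places in its core, and up to 2 mismatches elsewhere were allowed. The 8 windows held 7 matches, 3 of them at Mir34a, 2 at Mir181a-1, 1 at Mir155 and 1 at Mir17. Only 1 had no mismatch. It lay at Mir34a, at 149423227 to 149423246, 105 bp downstream of the start of Gm13067 and 19.4 kb upstream of the hairpin, inside the DHS with a score of 13.2. Over all 47474 DHS on chromosomes 1 to 19 and X the central 300 bases held a match in 156 (0.329%), and a match without mismatch in 4. The DHS at Mir34a is thus 1 of 4 with a perfect element in its centre, at a score of percentile 12.5. Its central 300 bases are shown with the element in capitals (chr4:149423056-149423355, plus strand, mm9).
Mir34a upstream DHS: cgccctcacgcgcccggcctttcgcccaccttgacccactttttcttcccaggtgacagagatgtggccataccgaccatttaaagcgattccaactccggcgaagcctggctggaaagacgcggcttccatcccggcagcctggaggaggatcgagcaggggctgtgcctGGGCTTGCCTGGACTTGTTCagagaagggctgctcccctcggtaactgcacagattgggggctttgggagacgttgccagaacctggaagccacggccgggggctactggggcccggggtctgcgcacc

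The other match inside a DHS was in the Mrpl39 promoter DHS downstream of Mir155 (84735227 to 84735246), with 2 mismatches. It lay outside the central 300 bases of that DHS. Within the central 300 bases, 1 of the 39 DHS, the one at Mir34a, held a match without spacer, against 0.329% of all DHS. The element at Mir34a and the one in the Mrpl39 promoter DHS are shown with the core of each decamer in capitals.
Mir34a element: gggCTTGcctggaCTTGttc
Mir155 downstream element: ggaCTTGgctaggCAAGcgc
The remaining 5 matches were outside DHS, at 1557 to 16557 bp from the nearest one. With a spacer of 1 to 15 bases between the decamers and at most 1 mismatch, the 8 windows held 21 matches, 7 of them at Mir150, and 3 lay in a DHS, all at Mir150. The only one in a DHS without mismatch was in the DHS over the Mir150 hairpin, 1.28 kb upstream of the hairpin. Within the central 300 bases, 1 of the 39 DHS held a match of this form, with 1 mismatch and at Mir150, against 0.958% of all DHS, and the match without mismatch lay outside that centre. A match is a likeness of letters and not a measured binding site.

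Mir181a-1 (chromosome 1, 139863032 to 139863118, plus strand) and its partner Mir181b-1 had no DHS within 30 kb and have no host in this annotation. The nearest DHS was 33.6 kb upstream, with a score of 8.63 at percentile 2.08, and the nearest downstream was 77.7 kb away, with 37.8. Within 100 kb there were 5 DHS, and the highest scored 82.4 at 66.9 kb upstream. The window of 60087 bp held 0 undetermined bases, and its GC content of 37.7% was the lowest of the 8, beside 39.3% at Mir223, 41.3% at Mir17, 42.04% at Mir155 and 44.2% to 51.7% at the other loci. The part of base composition in the missing DHS was not tested.

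By their centre 24 of the 39 DHS were intergenic, 10 intronic and 5 exonic. No such count over all DHS is given here, so whether these numbers are unusual is not known. With regard to promoters, 7 of the 39 lay at a host TSS, 11 others at a protein-coding promoter, 3 more in the promoter window of Gm12148 or Gm13067, and 18 at none of these. Counting the 1 that is at both a host and a protein-coding promoter, 12 of the 39 (30.8%) were at a protein-coding promoter, against 43.5% of all DHS. The median score was 46.7 (quartiles 23.2 and 101.6) against 32.65 for all DHS, 25 of the 39 (64.1%) were at or above the median of the list, and 7 were in its top decile. The median width was 1015 bp against 760 bp. In GC content (51.5% against 49.3%) and CpG ratio (0.293 against 0.288) the medians lay close to those of all DHS, and 4 of the 39 (10.3%) were CpG-rich, defined as a GC content of at least 55% and a CpG ratio of at least 0.6, against 12.8% of all DHS. DHS of 1 locus are not independent, and no test was made.

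**Figure D3:**
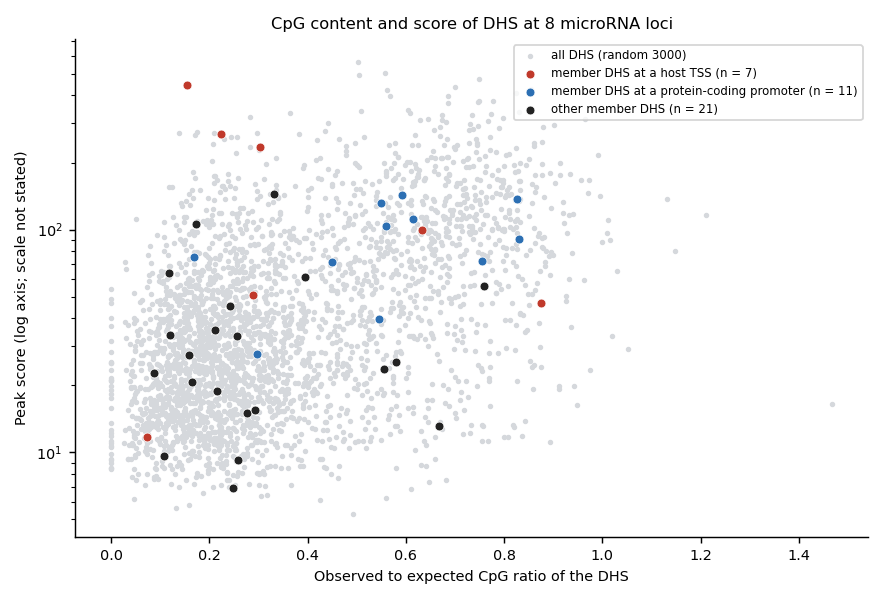
Peak score (log axis) against the observed to expected CpG ratio for the 39 DHS of the 8 loci, coloured by the promoter they overlap, over a random sample of all DHS in light grey. The 3 highest points, all at the Mir142 host, have CpG ratios from 0.155 to 0.303, whereas DHS at protein-coding promoters mostly lie above 0.4.

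The 3 highest DHS, all overlapping the promoter window of the Mir142 host, had CpG ratios of 0.155, 0.223 and 0.303, the last of them above the median of all DHS and also at the Bzrap1 promoter. The Mir150 hairpin DHS had 0.117. The DHS over the Mir17hg start had 0.632 and the Mrpl39 promoter 0.831. The 3 DHS in the Supt4h1 promoter window had 0.296, 0.825 and 0.756, and the other DHS of the Bzrap1 promoter windows had 0.546 and 0.168. The host start of Mir223 had the lowest ratio of all 39, 0.0738.

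Short words for factors of B cells, activation and growth were counted in the central 300 bases of each DHS on both strands. The words were GAGGAAGT for PU.1, GGANTTTCC for NF-kB, TGANTCA for AP-1 and CACGTG for the E-box bound by Myc and related factors, where N is any base. Matches to different words did not overlap in the 39 DHS. The PU.1 word was in 2 of them, both at Mir146, against 3.61% of all DHS. The NF-kB word was in 2, 1 at Mir146 and 1 at Mir17, against 1.24%. The AP-1 word was in 1, the CpG-dense DHS upstream of Mir155, against 7.61%. The E-box was in 4, the 2 DHS upstream of Mir142 with the highest scores and 2 at Mir146, against 5.93%. These counts are too small to set the members apart from other DHS.

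Other microRNAs give a measure of how usual these windows are. A DHS lay within 30 kb of 14 of 15 further microRNAs of lymphoid and blood cells, all but Mir29c, and the median number was 3. Of 6 further microRNAs linked to p53, 4 had one, and Mir34b and Mir34c, the relatives of Mir34a, had none nearer than 50.7 kb. The highest score in that list was 416 at Mir192 and Mir194-2, which share a window. Of 13 microRNAs of other tissues 5 had a DHS, namely Mir9-2, Mir124a-3, Mir208a, Mir196a-1 and Mir196a-2, with highest scores of 86.5, 96.9, 22.04, 51.5 and 38.2. The background for all these counts is the 48.7% of all microRNA genes given above. Hairpins of 1 cluster share their DHS, as Mir23a, Mir27a and Mir24-2 do with 12 each, so the counts are not of independent loci. A further 5 listed symbols had no entry under that name and were not analysed here.

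**Figure D4:**
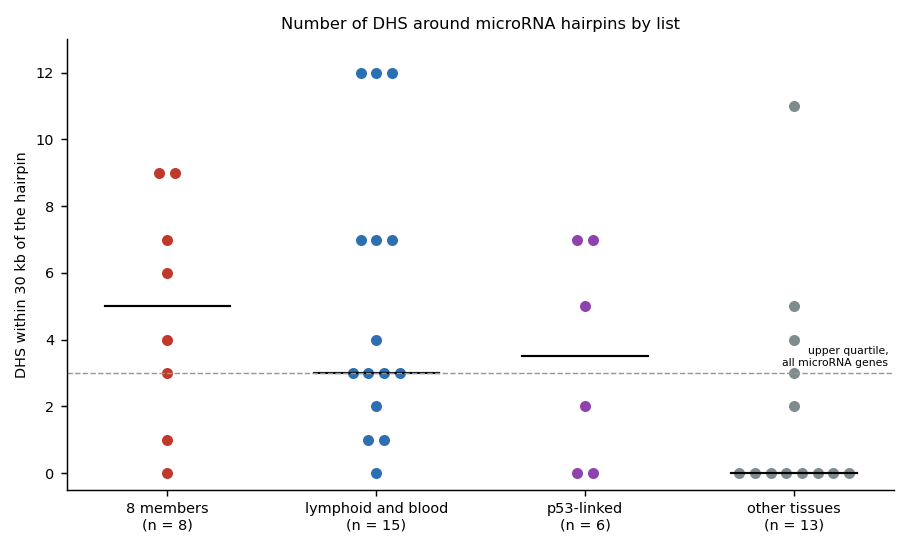
Number of DHS within 30 kb of the hairpin (y axis) for the 8 members and for the listed microRNAs of lymphoid and blood cells, linked to p53, and of other tissues. Each point is 1 hairpin, black bars are medians (5, 3, 3.5 and 0) and the dashed line is the upper quartile over all microRNA genes, 3.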

How the data were processed

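Apoptotic cells were removed on a Ficoll gradient, nuclei of the splenic B cells were digested with DNase I, and 1 library was sequenced with 1 input library, which was not analysed here. The submitters' processing notes name BWA 0.6.2, SAMtools and build mm9. The deposited peak list holds positions, MACS peak names and a score per peak. The authors' deposited score has no stated scale, and for this DNaseI library the caller's settings, control and read filters are not given in the sources used here, which state them for other assays of the study. Read depth is unknown, since the list holds no read counts.

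Starts were converted to positions counted from 1. Loci were taken from GENCODE M1 on the same build, with windows of 30 kb on each side of the hairpin and an overlap of at least 1 bp. A host was a gene other than a small RNA that overlapped the hairpin on its strand. Without a host, the 5′ end of the hairpin gene was used, which is not a TSS. Promoter windows ran from 5 kb upstream to 2 kb downstream, as the study had them. A median over members counted a window without a DHS as 0. Words were searched on both strands in the central 300 bases of each DHS. The p53 element (paired decamers, no spacer, at most 2 mismatches, none at the core C and G) is palindromic and was searched once. Mature sequences are from RefSeq on GRCm38.p6 and were matched in mm9 by sequence. Python 3.11.15, pandas 2.3.3, scipy 1.17.1 and pyfaidx 0.9.0.4 were used, and counting and word search were tested on simulated data.

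The members and lists were chosen with earlier results of these data known. Described are the members, their hosts and cluster partners, and of each member the nearest and the highest-scoring DHS and those over the hairpin or host TSS, except 1 that is not reported. From each list, the microRNAs lacking a DHS are named if they number under 6, and failing that those with a DHS if they do. Any other DHS described singly was chosen after its values were seen. A marker gene and a neighbouring gene are not reported here. With 1 library there are no replicates and no p-value. Intervals are Wilson intervals at the 95% level and cover counting error only. Alternatives were windows of 10 and 100 kb, peaks at or above the median score, merging below 500 bp, peak centres, DHS away from protein-coding promoters, 1 kb around the TSS and other p53 match rules.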

Additional observations from a re-analysis of the deposited data

How the results depend on the processing

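No paired analysis was possible because there is 1 library. Of the alternative values 26 kept to their result, within 1.5 times or, for shares of microRNA genes, within the interval, and 14 did not. A DHS was called at 6, 7 or 8 members under every alternative run. With windows of 10 kb the number of DHS was 17, the median highest score 44.5 and the share of all microRNA genes 33.8%. With 100 kb the number was 88, the bases called per 100 kb fell to 4753 from 9949, and the share was 63.9%. Peaks at or above the median score numbered 25, with a share of 41.6%, and 1 locus, Mir223, was lost. By peak centre the count of hairpins was 0 instead of 3, but a single central base seldom falls in so short a hairpin, so this says nothing of the overlap. Away from protein-coding promoters the median highest score was 59.7 instead of 105. Joining microRNA genes within 10 kb, a setting chosen after the data were seen, gave a share of 54.3%. Of the p53 elements in a DHS, 1 was left with no mismatch and 1 with at most 1 mismatch, instead of 2, and with a spacer of 1 to 15 bases and at most 1 mismatch there were 3, all at Mir150. With each host counted once, also chosen after the data were seen, a DHS lay at the TSS of 68.2% of hosts, against 71.9% over hosted microRNA genes, 119 of which share 1 host. The causes of the changes were not tested. Depth is unknown, and a missing DHS may be one not called.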

Other observations

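Seeds of Mir146, Mir34a, Mir181a-1 and Mir17 recur at loci outside their clusters, a comparison chosen after the data were seen. The mature miR-181a-5p of Mir181a-1 is made in identical form from Mir181a-2, whose window held 2 DHS with a highest score of 44.05, the nearest 27.2 kb from the hairpin. Mir181c and Mir181d, with the same seed, had 9 and 10 DHS and a highest score of 260, in a region they share with Mir23a. No DHS was called within 30 kb of Mir181a-1 itself.

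Mir146b, which shares the seed of miR-146a-5p, lies in the gene Tmem180 and had 10 DHS with a highest score of 275, the nearest 0.675 kb from the hairpin, while the nearest DHS of Mir146 was 10.2 kb away. Of the loci with the seed of miR-17-5p, Mir106b and Mir93 lie in Mcm7, a replication gene, and had 7 DHS with a highest score of 373. Mir106a and Mir20b on chromosome X had 2, with a highest score of 36.9, and the Mir17 window had 3, with 99.2. Of those with the seed of miR-34a-5p, Mir449a and Mir449c lie in Cdc20b and had 5 DHS with a highest score of 95.8, and Mir34b had 0.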
